A study of Pyrocoelia pectoralis with 6 samples.

Results

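The sulfotransferase family of the firefly Pyrocoelia pectoralis was measured in the luminous organ and in the non-luminous organ of males. Members were the genes whose deposited description contains the word sulfotransferase, less RI129_005665 and RI129_001681, which were set aside by identifier. That gave 29 of 12533 genes. Of these, 20 were described as luciferin sulfotransferase, 8 as sulfotransferases of carbohydrates and 1 as protein-tyrosine sulfotransferase, and 0 as a cytosolic sulfotransferase. The 20 luciferin sulfotransferases share the symbol LST, 1 description and the single Gene Ontology term sulfotransferase activity, and none of them carries a KEGG pathway. They are therefore given by identifier, and no substrate of any of them was measured. Both genes set aside are also described as luciferin sulfotransferase and stood higher in the luminous organ, so counts over the 20 do not stand for the complete group of 22.

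The 3 libraries of the luminous organ and the 3 of the non-luminous organ came from male fireflies, and the labels give no age, treatment, body position or pooling, and no further description of the non-luminous organ. Whether replicates are separate animals is not stated in the labels, so p-values cover only how much these libraries varied, and that variation may be technical. The values are FPKM (fragment counts per gene length and per library total), deposited by the authors, and the totals behind them were 18.04 to 20.42 M reads.

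Sulfotransferases move a sulfate group from the donor PAPS (3'-phosphoadenosine 5'-phosphosulfate) to an acceptor. Soluble members act on small molecules, while members in the Golgi apparatus act on the sugar chains of proteoglycans or on tyrosines of secreted proteins. In the firefly Photinus pyralis, luciferin sulfotransferase converts luciferin, the fuel of the light reaction, to sulfoluciferin, which luciferase does not use and which is regarded as a storage form. PAPS is made from sulfate and ATP by PAPS synthase, and the spent donor is broken down by a bisphosphate nucleotidase.

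The organ labels were checked on a luciferase gene. The luminous libraries held 292 to 532 FPKM of RI129_003463, the luciferin 4-monooxygenase by its description, and the others 0.322 to 0.595 FPKM. Luminous replicate 1 stood apart from luminous replicates 2 and 3 on the principal component that held 15.7% of the variance. Organs were compared on log2(FPKM + 1) with limma, in the 9863 genes whose mean over all libraries reached 1 FPKM, and a gene was called at an adjusted p (Benjamini-Hochberg over those genes) under 0.05. As background, 17.0% of tested genes were called lower and 9.63% higher in the luminous organ. The share of calls that were higher was 36.2% as deposited, 46.3% with median-of-ratios scaling and 53.8% with quantile normalization, and the median log2 difference of tested genes went from -0.095 to 0.074 between the first and the last. In bulk samples, fewer cells of a type and less RNA per cell cannot be told apart.

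All calls among the 20 luciferin sulfotransferase genes kept were lower in the luminous organ. That single direction depends on the set-aside, since both genes set aside stood higher there. With them, 18 genes were tested, 11 were called lower and 1 higher. Of the 20 genes, 16 passed the filter on low values, and of these 11 were called lower, 0 higher and 5 were not called, where 17.0% of all tested genes were called lower. Genes that pass such a filter through 1 organ alone had to differ, so the fit without a filter was also read over all 20 genes. It called 11 lower and 0 higher, and 12.5% of all genes lower. These were not the same 11 genes: RI129_012799 and RI129_012455 were called with the filter only, and RI129_001711 and RI129_012451 without it only. Among the genes called with the filter, RI129_003358, RI129_001709, RI129_013118 and RI129_012460 passed it through the non-luminous organ alone, with luminous means under 1 FPKM. All of them were called lower without the filter too. Limma adjusted p was then 0.00798 for RI129_003358, 0.00392 for RI129_001709 and 0.0109 for RI129_013118. Over all 20 genes the median log2 difference, luminous minus non-luminous, was -0.99, against -0.07 over all 12533 genes. Of the 20, 18 were lower on average on that scale, as were 7343 of all 12533 genes. In 14 of the 20, every luminous library was below every non-luminous library, as was the case for 24.9% of all genes.

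**Figure D1:**
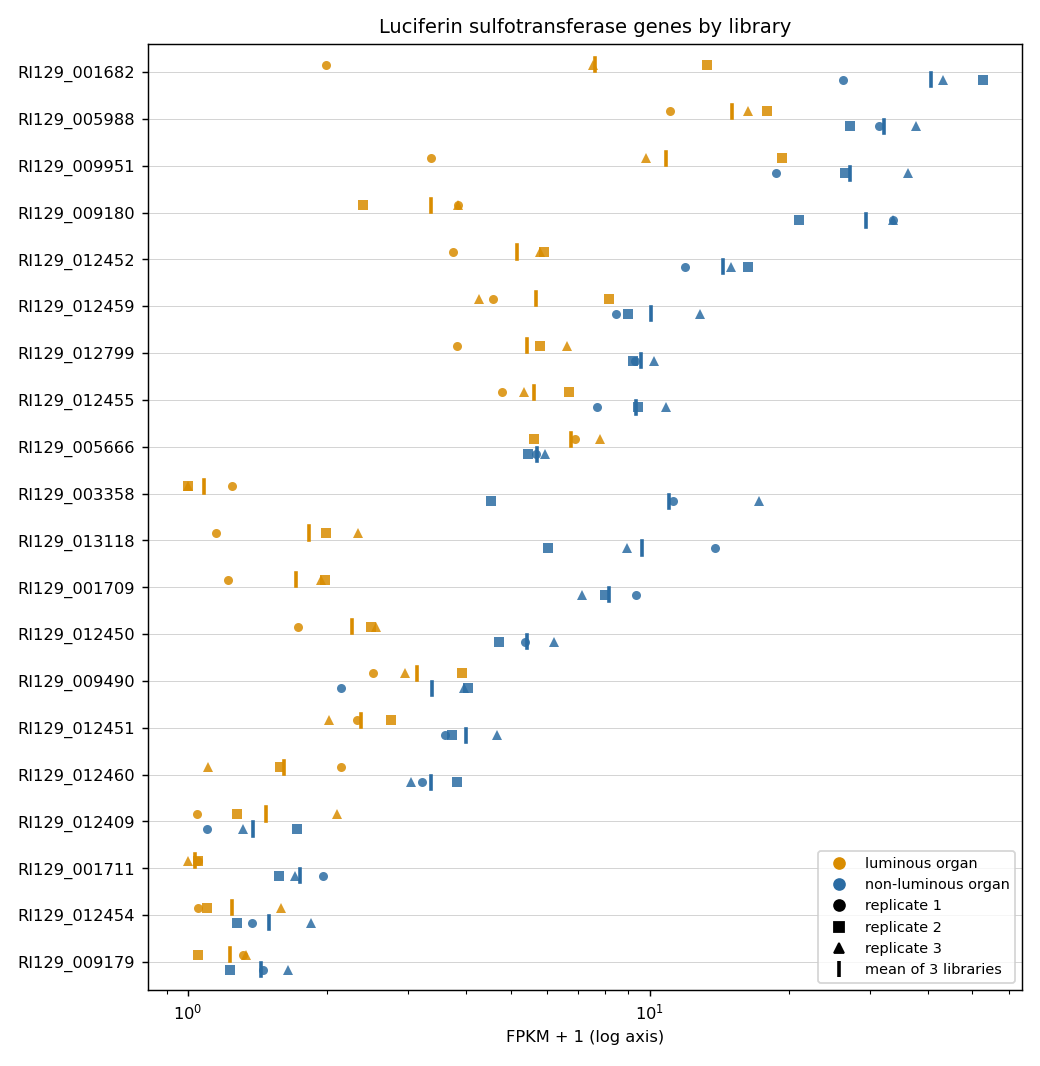
FPKM + 1 on a log axis for the 20 luciferin sulfotransferase genes, 1 row a gene, with luminous libraries in orange, non-luminous libraries in blue, 1 symbol a replicate and a tick at the mean of 3 libraries. In 14 rows all orange points lie left of all blue points, and RI129_005666, RI129_009490, RI129_009179, RI129_012454, RI129_012409 and RI129_009951 show overlapping organs.

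RI129_003358 was close to silent in the luminous organ. It stood at 0.249 FPKM in luminous replicate 1 and had no read in luminous replicates 2 and 3, against 10.3, 3.54 and 16.3 FPKM in the non-luminous libraries. All 3 non-luminous libraries were far above all 3 luminous libraries. In reads this was 3 in the luminous organ and 331 in the non-luminous organ, a ratio of 119 with an exact 95% interval of 40.2 to 578 that covers counting error only. On the log2 scale the difference was -3.15 (SE 0.468, limma adjusted p = 0.00457).

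RI129_009180 was the gene with the smallest adjusted p of the 20. It stood at 2.85, 1.40 and 2.85 FPKM in the luminous libraries and at 32.7, 20.1 and 32.6 FPKM in the non-luminous libraries. The organs did not overlap, and the means were 2.37 ± 0.837 and 28.5 ± 7.27 FPKM (SD, n = 3), a 12.0-fold ratio. The log2 difference was -3.13 (SE 0.275, limma adjusted p = 0.00084). The call held under each of the 15 alternatives run, as did those of RI129_003358 and, under the 14 that tested them, RI129_013118 and RI129_001709.

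RI129_001682 had the highest mean of the 20 over all libraries. Its luminous values were 0.989, 12.3 and 6.54 FPKM, and its non-luminous values 25.2, 51.7 and 42.2 FPKM. The luminous libraries differed widely among themselves, with replicate 1 lowest, yet all 3 stayed below the non-luminous libraries. The means were 6.62 ± 5.67 and 39.7 ± 13.4 FPKM (SD, n = 3; log2 difference -2.74, SE 0.647, limma adjusted p = 0.0206). The call was lost without non-luminous replicate 2 (adjusted p = 0.0724) and without non-luminous replicate 3 (0.0767), with 0.0074 to 0.0767 over the alternatives.

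RI129_013118 stood at 0.152, 0.995 and 1.34 FPKM in the luminous libraries and at 12.9, 5.03 and 7.94 FPKM in the others. Luminous replicate 1 was again the lowest, and the organs did not overlap (log2 difference -2.37, SE 0.389, limma adjusted p = 0.00617). RI129_001709, given because it has a neighbouring member and chosen after its values were seen, stood at 0.223 to 0.986 FPKM against 6.14 to 8.36 FPKM. It was read 38 times in the luminous organ and 355 times in the non-luminous organ (log2 difference -2.27, limma adjusted p = 0.0023).

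RI129_005988 kept a moderate level in both organs. It stood at 10.1, 16.9 and 15.3 FPKM in the luminous libraries and at 30.4, 26.2 and 36.8 FPKM in the non-luminous libraries, without overlap. The difference was 2.21-fold between the means (log2 difference -1.11, SE 0.218, limma adjusted p = 0.0114). Among the 20 it was the only one with a luminous mean above 10 FPKM, while 6 had a non-luminous mean above 10 FPKM. Its call was lost without non-luminous replicate 3 (adjusted p = 0.0527, with 0.0104 as the lowest over the alternatives).

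The remaining 5 calls ran from -1.50 to -0.73. RI129_012452 differed by -1.50, RI129_012450 by -1.28, RI129_012460 by -1.11, RI129_012799 by -0.86 and RI129_012455 by -0.73 on the log2 scale, all chosen here after their values were seen. Their limma adjusted p ran from 0.00553 to 0.0425. RI129_012452 was called under all 15 alternatives and RI129_012450 under 13 of 14. The other 3 were weak: RI129_012799 was called under 8 of 15, RI129_012460 under 6 of 14 and RI129_012455 under 4 of 15, with adjusted p up to 0.152 for the last.

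**Figure D2:**
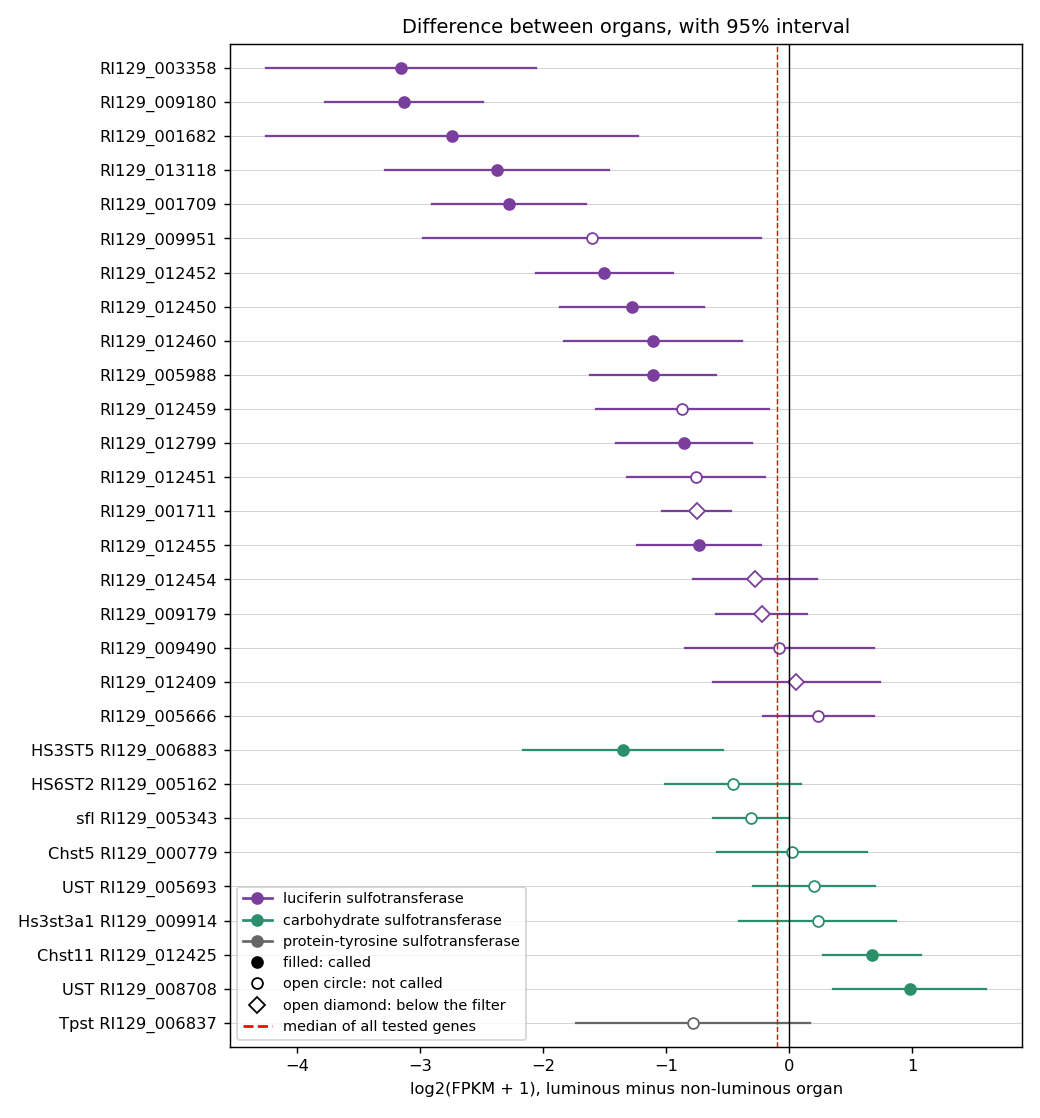
Log2(FPKM + 1) difference, luminous minus non-luminous organ, with its 95% interval, for all 29 sulfotransferase genes. Filled points are called, open circles are not called and open diamonds are genes below the filter, shown from the fit without a filter. The luciferin sulfotransferases run from -3.15 to 0.24, and the dashed line marks the median of all tested genes.

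RI129_009951 spread widely among the libraries and did not pass the test. It stood at 2.37, 18.4 and 8.83 FPKM in the luminous libraries and at 17.8, 25.5 and 35.3 FPKM in the others. Luminous replicate 2 was above non-luminous replicate 1, so the organs overlapped (log2 difference -1.60, 95% interval -2.98 to -0.23, limma adjusted p = 0.0834). Without luminous replicate 2 it was called (adjusted p = 0.0209) and without luminous replicate 1 its difference was -0.93. RI129_012459 was not called either, although its luminous values of 3.58, 7.19 and 3.28 FPKM were all below the non-luminous 7.44, 7.99 and 11.8 FPKM (log2 difference -0.87, limma adjusted p = 0.0713, and 0.0177 without luminous replicate 2). RI129_012451, lower in every luminous library at 1.03 to 1.75 FPKM against 2.60 to 3.68 FPKM, was close to the threshold (log2 difference -0.76, limma adjusted p = 0.0529, with 0.0256 to 0.196 over the alternatives).

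A few members showed no detectable difference. RI129_005666 stood at 5.89, 4.62 and 6.82 FPKM against 4.68, 4.47 and 4.95 FPKM (log2 difference 0.24, 95% interval -0.22 to 0.69, limma adjusted p = 0.403). RI129_009490 stood at 1.52 to 2.93 FPKM and 1.15 to 3.05 FPKM, and its interval ran from -0.84 to 0.69. These intervals do not reach the differences of -1.11 and beyond of the members above. RI129_012409, RI129_012454 and RI129_009179 were below the filter, with 13 to 29 reads in the luminous organ and 22 to 27 reads in the other. At that depth only large differences could have been detected. RI129_001711, also below the filter, was read 2 times in the luminous organ and 39 times in the other, a ratio of 21.0 with an exact 95% interval of 5.43 to 179 (adjusted p = 0.00913 in the fit without a filter).

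Summed over the 20 genes, luciferin sulfotransferase stood at 41.0, 85.4 and 67.4 FPKM in the luminous libraries and at 188, 198 and 244 FPKM in the non-luminous libraries. The sum was lower in every luminous library than in any non-luminous one. Luminous replicate 1 was the lowest of the luminous libraries in 12 of the 20 genes. Over all 12533 genes that number was 4892, which includes ties, such as genes without a read in any luminous library. Without luminous replicate 1, 10 of the 16 tested genes were called lower and 0 higher. Leaving out a non-luminous library gave 8 lower calls (replicate 1 left out), 7 (replicate 2) or 5 (replicate 3), and 0 higher. Lower calls over all 9863 tested genes also dropped then, from 1676 to 979, 1020 and 757.

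The genes set aside change the sum more than the counts. RI129_005665 stood at 32.2, 73.8 and 61.2 FPKM in the luminous libraries against 2.98, 4.34 and 2.11 FPKM. RI129_001681 stood at 17.7, 25.4 and 62.9 FPKM against 10.1, 14.9 and 10.4 FPKM, without overlap, and was not called (log2 difference 1.32, limma adjusted p = 0.0553, with 0.0142 to 0.158 over the alternatives). With both added, the 22 genes summed to 90.9, 185 and 192 FPKM in the luminous libraries and to 201, 217 and 256 FPKM in the others. Every luminous sum was still below every non-luminous sum, with the closest pair at 192 and 201 FPKM.

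The makeup of that sum differed between the organs. RI129_005665 made up 35.4, 39.98 and 31.9% of the 22-gene sum in the luminous libraries and 1.48, 2.0 and 0.823% in the non-luminous libraries. RI129_001681, also set aside, made up 19.5, 13.8 and 32.9% against 5.02, 6.88 and 4.08%. In the non-luminous libraries RI129_001682, RI129_005988 and RI129_009180 made up on average 17.6, 13.9 and 12.8%, against 3.73, 9.43 and 1.80% in the luminous libraries. These shares add values per length and depend on how reads were divided between similar genes, which no source used here gives.

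**Figure D3:**
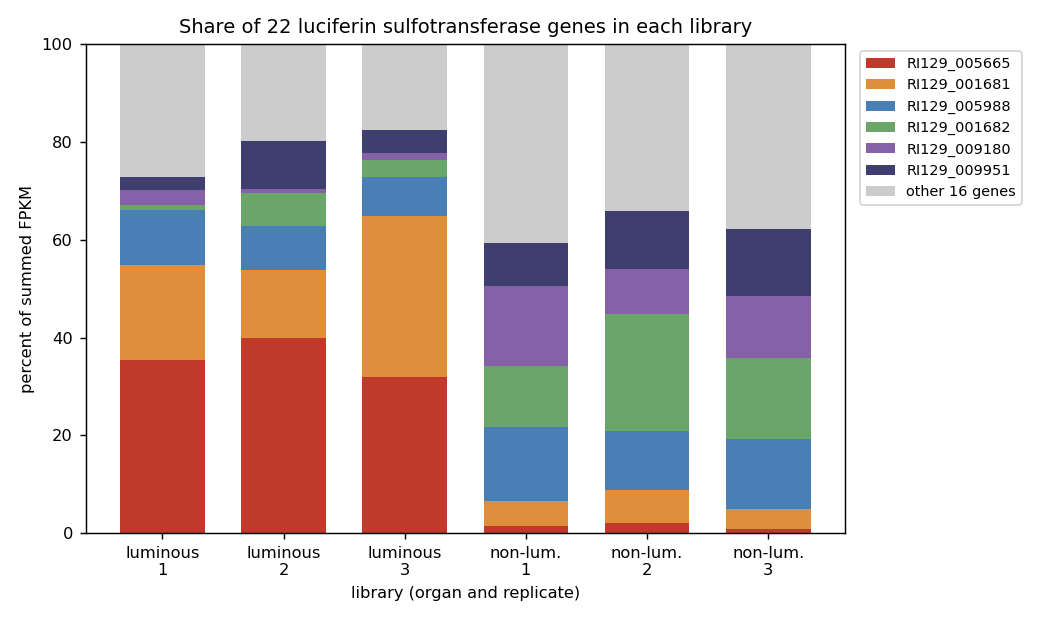
Percent of the summed FPKM of 22 luciferin sulfotransferase genes, the 2 set aside included, held by 6 named genes and by the other 16 together, with 1 bar a library. RI129_005665 takes 31.9 to 39.98% of the luminous bars and 0.823 to 2.0% of the non-luminous bars, and RI129_001681 takes 13.8 to 32.9% and 4.08 to 6.88%.

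Many luciferin sulfotransferases carry neighbouring identifiers. No source used here gives gene positions or a genome build, so nearness was read from the identifier numbers alone. From RI129_012450 to RI129_012460 there were 7 luciferin sulfotransferases among 11 identifiers. All 7 were lower on average in the luminous organ, as were 7343 of all 12533 genes. Of the 7, 6 were lower without overlap, where 24.9% of all genes were so. Of the 6 tested, 4 were called lower, where 17.0% of tested genes were. The 7 genes summed to 13.4, 21.7 and 15.7 FPKM in the luminous libraries and 34.6, 41.3 and 47.5 FPKM in the others. Within that run the levels still differed widely, from RI129_012452 at a non-luminous mean of 13.4 FPKM to RI129_012454 at 0.503 FPKM.

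Smaller groups of neighbours held genes of unlike levels or directions. RI129_009180, with a 12.0-fold ratio, adjoins RI129_009179, which was nearly silent at 0.0522 to 0.337 FPKM in the luminous libraries and 0.232 to 0.649 FPKM in the others. RI129_001682, called lower, adjoins the set-aside RI129_001681, whose luminous values were all higher. RI129_005666, with no detectable difference, adjoins the set-aside RI129_005665, which was called higher (log2 difference 3.73, limma adjusted p = 0.000856). RI129_001709 and RI129_001711, with 1 undescribed gene between them, both had lower values in every luminous library. The difference between neighbours was not tested.

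The gene lengths behind the FPKM values also varied. Each was taken as the shortest length that made the read numbers of that gene whole. Of the 20 genes, 13 had a length within 10% of the median of 943.5 bases. RI129_003358 and RI129_012459 had short models of 600 and 627 bases, and RI129_009951 a long model of 2778 bases. The set-aside RI129_005665 had 552 bases. Whether these models are complete was not tested.

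Gene lists matched by words for gut, Malpighian tubule, muscle and neural tissue also had sums that differed between the organs, while those for fat body overlapped. A list of 103 gut genes, matched by words such as trypsin and maltase, summed to 1850 to 3005 FPKM in the luminous libraries and 6277 to 8016 FPKM in the non-luminous libraries. Of these genes, 33 had a higher luminous mean. All luminous libraries lacked reads of 17 of them, and all non-luminous libraries lacked reads of 3. A list of 30 Malpighian tubule genes, of which 13 had a higher luminous mean, summed to 1982 to 2427 FPKM against 3266 to 3817 FPKM, with 0 genes silent in either organ. Of 14 muscle genes 12 had a higher luminous mean, with sums of 65583 to 70092 FPKM against 26514 to 33799 FPKM and 0 silent. The sums of 12 fat body genes (1515 to 2261 and 1415 to 1546 FPKM) overlapped, and those of 12 neural genes were 452 to 552 and 312 to 387 FPKM, with 6 genes of each list higher in the luminous organ and 0 silent. The part of these tissues in the sulfotransferase differences was not tested.

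The carbohydrate sulfotransferases, Golgi enzymes that sulfate the chains of proteoglycans, held calls in both directions. All 8 passed the filter. Of these, 1 was called lower and 2 higher, where 17.0% and 9.63% of tested genes were, and 5 were not called. Their median log2 difference was 0.11, and their summed level was 193, 136 and 136 FPKM in the luminous libraries against 133, 154 and 144 FPKM in the others, with overlap. Each of the 3 calls was lost when a library was left out, and 0 were called when any 1 of the non-luminous libraries was left out.

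HS3ST5 (RI129_006883), a heparan sulfate 3-O-sulfotransferase that adds a rare, late modification to heparan sulfate, was the lower one. It stood at 3.51, 4.79 and 1.21 FPKM in the luminous libraries and at 8.48, 9.30 and 8.71 FPKM in the others. The non-luminous libraries lay close together and above all luminous libraries (log2 difference -1.35, SE 0.348, limma adjusted p = 0.0274, with 0.014 to 0.0895 over the alternatives). The call was lost without each non-luminous replicate in turn.

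Chst11 (RI129_012425), named for a chondroitin 4-sulfotransferase, was higher. It stood at 16.0, 11.5 and 13.7 FPKM in the luminous libraries and at 8.84, 8.23 and 7.45 FPKM in the others, without overlap. The ratio of means was 1.68 (log2 difference 0.67, SE 0.172, limma adjusted p = 0.0263, with 0.0112 to 0.0991 over the alternatives). Leaving out any library but luminous replicate 2 ended the call.

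A pair of genes is described as uronyl 2-sulfotransferase, which sulfates uronic acids of dermatan and chondroitin sulfate in vertebrates. UST RI129_008708 was low but higher in the luminous organ, at 2.07, 3.16 and 4.15 FPKM against 0.938, 1.30 and 0.931 FPKM (log2 difference 0.98, SE 0.267, limma adjusted p = 0.0335, with 0.0112 to 0.106 over the alternatives). Its call was lost without each library but luminous replicate 1. UST RI129_005693 was the highest of the 8, at 135, 77.0 and 84.8 FPKM against 73.9, 87.8 and 88.7 FPKM. The organs overlapped, luminous replicate 1 stood above all other libraries, and the difference of 0.20 was not called (95% interval -0.29 to 0.70, limma adjusted p = 0.521). It was -0.040 without that library.

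The other carbohydrate sulfotransferases were not called. The gene sfl (RI129_005343), the Drosophila name of the enzyme that removes acetyl groups and adds N-sulfate, stood at 17.7, 15.2 and 14.9 FPKM in the luminous libraries and at 19.9, 20.8 and 19.1 FPKM in the others. The organs did not overlap, but the difference of -0.31 was not called (95% interval -0.62 to 0.0018, limma adjusted p = 0.127). HS6ST2 (RI129_005162), a 6-O-sulfotransferase, stood at 9.33, 10.3 and 5.88 FPKM against 12.5, 13.5 and 9.50 FPKM (log2 difference -0.45, 95% interval -1.01 to 0.10). Hs3st3a1 (RI129_009914), another 3-O-sulfotransferase, and Chst5 (RI129_000779), of the N-acetylglucosamine 6-O group, differed by 0.23 (limma adjusted p = 0.573) and 0.023 (0.96).

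**Figure D4:**
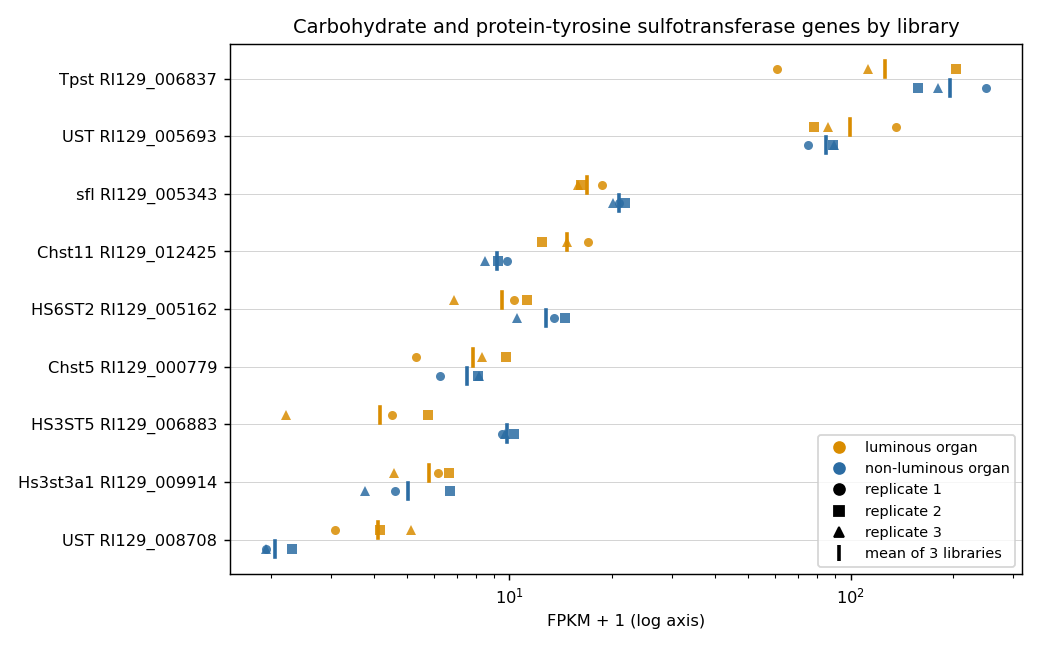
FPKM + 1 on a log axis for the 8 carbohydrate sulfotransferase genes and Tpst, 1 row a gene, with luminous libraries in orange, non-luminous libraries in blue, 1 symbol a replicate and a tick at the mean. Chst11 and UST RI129_008708 have all orange points to the right of the blue ones, and HS3ST5 and sfl all to the left.

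Tpst (RI129_006837), the protein-tyrosine sulfotransferase that sulfates tyrosines of secreted and membrane proteins, was the highest member in the non-luminous organ. It stood at 59.8, 203 and 112 FPKM in the luminous libraries and at 249, 156 and 180 FPKM in the others. The luminous libraries spanned the wider range, and replicate 2 was above a pair of the non-luminous libraries. The difference of -0.78 was not called (95% interval -1.74 to 0.17, limma adjusted p = 0.197). Without luminous replicate 2 it was -1.22 and called (adjusted p = 0.0304), and without luminous replicate 1 it was -0.34.

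The donor genes went in different directions. Of 40 other genes of sulfation, 39 were tested, 6 were called higher, 7 lower and 26 were not called, where 9.63% and 17.0% of tested genes were called higher and lower, and the median log2 difference of the 40 was -0.14. PAPS synthase makes the donor in 2 joined steps, and 3 genes carry its description. PAPSS2 (RI129_010993) stood at 156, 95.3 and 34.7 FPKM in the luminous libraries and at 2.18, 1.48 and 1.86 FPKM in the others. The luminous libraries differed from each other, and all of them were far above the non-luminous libraries (log2 difference 4.85, SE 0.484, limma adjusted p = 0.00132). Papss1 (RI129_010607) went the other way, at 14.1, 13.3 and 9.89 FPKM against 31.7, 26.8 and 31.6 FPKM (log2 difference -1.22, SE 0.168, limma adjusted p = 0.00367). Both calls held under all 15 alternatives.

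The third PAPS synthase gene, RI129_004556, chosen after its values were seen, was higher at a low level, with 5.84, 3.53 and 8.10 FPKM against 2.25, 2.38 and 2.02 FPKM. This was a call in limma (adjusted p = 0.0335, with 0.0101 to 0.107 over the alternatives) that ended when any library but luminous replicate 2 was left out. Papst2 (RI129_008267), a transporter that carries PAPS into the Golgi apparatus, also chosen after its values were seen, stood at 30.5 to 36.9 FPKM against 57.6 to 77.5 FPKM (log2 difference -0.94, limma adjusted p = 0.00542). The other PAPS transporter, sll (RI129_012201), differed by -0.11 (limma adjusted p = 0.529), and BPNT1 (RI129_003470), a bisphosphate nucleotidase, by -0.041 (0.839).

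**Figure D5:**
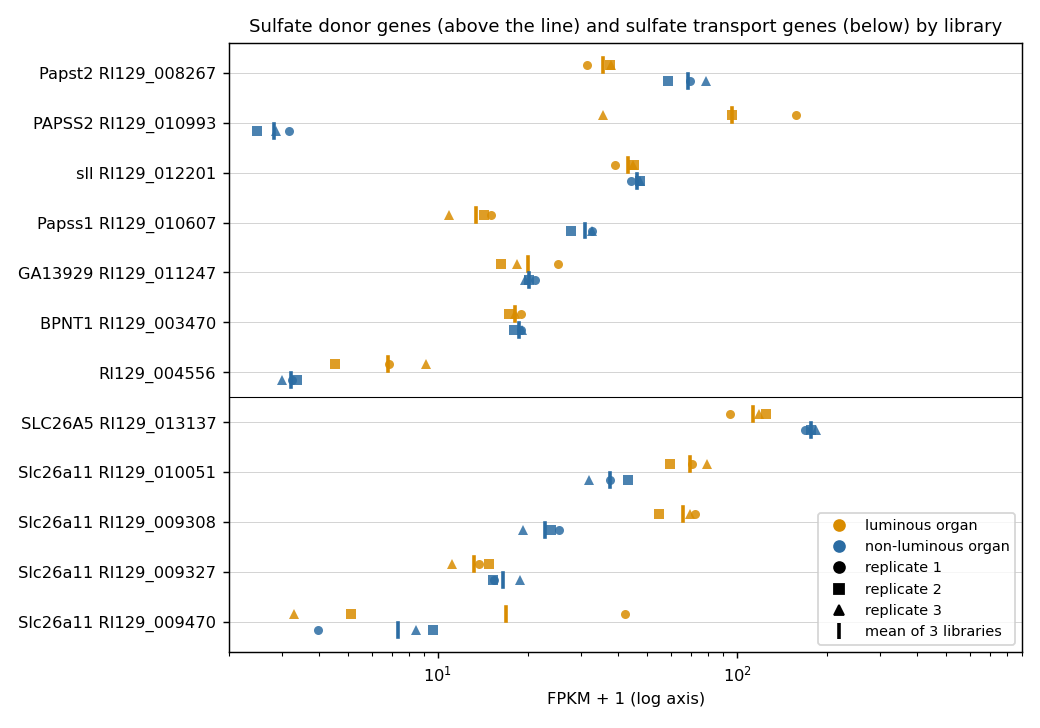
FPKM + 1 on a log axis for 7 sulfate donor genes above the line and 5 sulfate transport genes below it, with luminous libraries in orange, non-luminous libraries in blue, 1 symbol a replicate and a tick at the mean. PAPSS2 lies at 34.7 to 156 FPKM in the luminous libraries and at 1.48 to 2.18 FPKM in the others, while Papss1 and Papst2 lie lower in the luminous libraries.

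Sulfate anion transporters, which bring sulfate across membranes, also differed between genes of 1 name. Slc26a11 RI129_009308 stood at 71.6, 54.0 and 68.9 FPKM in the luminous libraries and at 24.4, 22.9 and 18.2 FPKM in the others (log2 difference 1.53, SE 0.164, limma adjusted p = 0.00175). Slc26a11 RI129_010051, chosen after its values were seen, was higher by 0.90 on that scale, and SLC26A5 (RI129_013137), described as prestin, was lower, at 93.9 to 124 FPKM against 168 to 183 FPKM (limma adjusted p = 0.0117, and 0.0535 without non-luminous replicate 3). Slc26a11 RI129_009327 and Slc26a11 RI129_009470 were not called. The last of these stood at 41.1 FPKM in luminous replicate 1 and at 4.14 and 2.30 FPKM in luminous replicates 2 and 3.

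Among 10 genes of sulfatases, which remove sulfate, 2 were called higher and 2 lower, where 9.63% and 17.0% of tested genes were. IDS (RI129_007767), iduronate 2-sulfatase, stood at 19.0, 30.6 and 22.7 FPKM in the luminous libraries and at 46.3, 49.4 and 53.3 FPKM in the others (log2 difference -1.04, limma adjusted p = 0.00757). All luminous libraries were lower. Of 5 genes described as arylsulfatase B, 2 were called higher, and RI129_012216, RI129_012955 and RI129_012956 were not called (log2 differences -0.15, 1.02 and -1.56). Arsb RI129_007667 stood at 27.4, 30.4 and 39.7 FPKM against 12.4, 11.1 and 10.9 FPKM (limma adjusted p = 0.00243). Its neighbour Arsb RI129_007668 stood at 1.97, 3.36 and 1.07 FPKM against 0.0552, 0.142 and 0.0865 FPKM (limma adjusted p = 0.018, a call lost without each non-luminous replicate, with 0.00931 to 0.0622 over the alternatives). It passed the filter through the luminous organ alone, and without a filter its limma adjusted p was 0.014. That fit also called 2 of the 10 sulfatase genes higher and 2 lower, against 849 and 1567 of all 12533 genes.

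Sulfate also comes from the breakdown of cysteine. The gene cdo1 (RI129_002089), cysteine dioxygenase, the entry enzyme of that route, stood at 112, 188 and 92.7 FPKM in the luminous libraries and at 376, 468 and 457 FPKM in the others. All luminous libraries were lower (log2 difference -1.78, SE 0.251, limma adjusted p = 0.00391). Sulfite oxidase, shop (RI129_001581), which forms sulfate from sulfite, differed by -0.29 and was not called (limma adjusted p = 0.231).

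Of 14 genes that build the glycosaminoglycan chains on which carbohydrate sulfotransferases act, 13 were tested, and 1 was called lower and 0 higher, where 17.0% and 9.63% of tested genes were. The lower one was ttv (RI129_011507), exostosin-1, a polymerase of heparan sulfate, chosen after its values were seen, at 8.85, 12.7 and 8.75 FPKM against 19.2, 19.4 and 19.8 FPKM (log2 difference -0.90, SE 0.173, limma adjusted p = 0.0103). Xxylt1 and GXYLT1 entered that list by the word xylosyltransferase and are known for work on other sugars. Of the 2 proteoglycan core genes, GPC6, a glypican, differed by -0.055 and Hspg2, the perlecan gene, by 0.41, and neither was called.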

How the data were processed

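RNA of 6 libraries was measured, 3 of the luminous and 3 of the non-luminous organ. Trizol extraction and a stranded mRNA library kit are named per the labels' protocols. The tools named per the submitters' processing notes are HTSeq, HISAT2, Trimmomatic and R 3.2.0, without their roles. The authors deposited FPKM values with symbols, descriptions and Gene Ontology terms. No source used here gives the genome build, annotation, strand setting or filters. Reads from near-identical copies may have been divided between them.

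In each gene the FPKM values rise in steps of 1 read. Among 11795 genes with a value above 0 in 3 or more libraries, 99.99% came out whole within 0.05. For each gene the shortest length that made all its values whole was taken from a wide range. With few values above 0 such a length is easily found, so that share is a weak check for those genes. The steps fix the totals up to a whole divisor, set at 3 because the summed reads then came nearest to the totals. In every library the summed reads still exceeded the total. They were 20.84 against 20.04 M in luminous replicate 1 and 19.04 against 18.04 M in non-luminous replicate 3. The totals and the gene lengths rest on that divisor. Read numbers cover counting error only.

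The test was limma 3.58.1 (R 4.3.3; lmFit, eBayes with intensity trend, two-sided) on log2(FPKM + 1), without a block, in genes whose mean reached 1 FPKM. The method was tested on simulated data with capped noise, which does not cover the most variable genes here. The pseudocount of 1 understates the change of low genes. Classes, other genes of sulfation and tissue lists were matched by words in descriptions. Values in every library are given, in each class, for the 4 largest called differences a direction, the 3 highest genes and the 2 largest differences not called, and for the 4 largest called differences a direction among the other sulfation genes, of which 1 is not reported here. The members and lists were chosen with earlier results of these data known. Alternatives were other pseudocounts, filters and scalings, no trend, a replicate block, voom on the recovered reads, and each library left out.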

Additional observations from a re-analysis of the deposited data

How the results depend on the processing

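The 11 luciferin sulfotransferase calls became 6 with a minimum mean of 5 FPKM, where only 10 genes were tested, and 5 to 12 with 1 library left out. They were 8 to 12 under the other alternatives, and 0 of the 20 genes kept were called higher under any. The set-aside RI129_005665 was called higher under all 15. The 3 carbohydrate calls became 2 with a minimum mean of 5 FPKM, where 6 genes were tested. They were 1 with the replicate block and 0 to 2 with 1 library left out. The 2626 calls over all genes became 1119 to 2648 with 1 library left out. Those over the other sulfation genes stayed within 1.5 times of 13. The cause of a lost call was not tested. Cytosolic sulfotransferases had no member and so no value under any alternative.

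No pairing by replicate number showed in the values, which cannot settle whether same-numbered libraries share an animal or batch. Deviations of same-numbered libraries correlated at -0.166 to -0.009, and 0 of the luminous libraries correlated best with their own number. With the replicate block, 9 luciferin sulfotransferases were lower and 1996 genes were called in all. The block ended the calls of Chst11, UST RI129_008708, RI129_004556, RI129_012455, RI129_012460 and RI129_012799 (adjusted p = 0.0545 to 0.0705) and made one of RI129_009951 (0.0446).

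RI129_003358 and RI129_009180 differed by -1.47 and -2.16 with a pseudocount of 5, so their order depends on it. Differences near 0 changed sign. With 1 library left out, Chst5 ran from -0.16 to 0.28, UST RI129_005693 from -0.040 to 0.36 and LST RI129_009490 from -0.38 to 0.079. LST RI129_009490 was also at 0.26 with quantile normalization. None of these was called. Over the single genes, 519 values kept direction and call, 55 lost a call, 8 gained a call and 8 changed sign. These values cover the 29 members, the 2 genes set aside and the 13 called other sulfation genes. The gained calls include those of the set-aside RI129_001681. Genes below the filter had few reads, which limits what can be detected.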
